A study of Mus musculus with 5 samples.

Results

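The 9 genes described here encode the integrin subunits that bind laminins and collagens, and they were taken by name from the 21835 genes of the table. The laminin-binding subunits were *Itga3*, *Itga6* and *Itga7* with *Itgb4*, the collagen-binding subunits were *Itga1*, *Itga2*, *Itga10* and *Itga11*, and *Itgb1* is shared by both groups. They were compared in cancer-associated fibroblasts (CAFs) of mouse lung, the activated fibroblasts of a tumor stroma, between 2 samples with a control vector (CAF-vec, labelled as wild-type control) and 3 samples in which the miR-200b, miR-429 and miR-200a cluster was overexpressed (CAF-200). Per the labels, the cluster was carried by a pLVX-Neo lentivirus under G418 selection, whereas the study's methods name a vector with hygromycin resistance and, in that passage, normal lung fibroblasts, although their account of the RNA sequencing also names CAFs, with RNA extracted in triplicate (2 CAF-vec samples were analysed here). The labels give the cell line only as CAF, and neither the number of mice or clones behind it nor separate cultures for the samples are given in the sources used here, so the *p* values measure the spread between these samples, which may be technical.

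An integrin is a pair of 1 α and 1 β subunit that spans the plasma membrane, holding the extracellular matrix outside the cell and, through adaptors such as talin and kindlin, the actin cytoskeleton inside it. The subunit β1 pairs with all of the α subunits listed here, and β4 pairs with α6 alone, forming the laminin receptor of epithelial hemidesmosomes. The α1, α2, α10 and α11 subunits carry an inserted domain that recognizes collagen, and α11β1 is known as a collagen receptor of fibroblasts. The α3, α6 and α7 subunits recognize laminins of the basement membrane, and α7β1 is best known from muscle.

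The sequences of the overexpressed miRNAs are shown because they define the intervention, and a short match to them was searched for in each integrin transcript. The mature forms from RefSeq (GRCm38.p6, minus strand of chromosome 4) are printed 5′ to 3′ with the seed, bases 2 to 8, in capitals. They lie at chr4:156055685-156055706 (miR-200b-3p), chr4:156053916-156053937 (miR-429-3p) and chr4:156054911-156054932 (miR-200a-3p).
miR-200b-3p: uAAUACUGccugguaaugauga
miR-429-3p: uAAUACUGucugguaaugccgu
miR-200a-3p: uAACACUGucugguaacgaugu
miR-200b-3p and miR-429-3p share 1 seed, which pairs with CAGTATT, and the seed of miR-200a-3p pairs with CAGTGTT.

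These 7-base matches were read on the transcript strand of the longest annotated 3′-UTR of each gene (GENCODE M21, GRCm38). *Itga1* and *Itga2* each held 1 match of each kind and *Itga10* held 1 match to the miR-200a-3p seed, 5 matches in all. They are shown with the match in capitals.
*Itga1*, base 1149 of the 3′-UTR, chr13:114958935-114958941, minus strand: tcgaacatggtgtatCAGTATTtaa
*Itga1*, base 2823, chr13:114957261-114957267, minus strand: ggtagagatgcagacCAGTGTTtag
*Itga2*, base 2174, chr13:114834305-114834311, minus strand: gcgctttgagcttagCAGTATTgta
*Itga2*, base 2660, chr13:114833819-114833825, minus strand: tgcctttctagttagCAGTGTTatt
*Itga10*, base 1022, chr3:96664052-96664058, plus strand: aagcaccttcttgccCAGTGTTggc
Only the second *Itga2* match was followed by an A, the base that lengthens a seed match. The 3′-UTR of *Itga1* was 6994 bases long, and of the 3′-UTRs within 20% of that length 52.6% held CAGTATT and 67.9% held CAGTGTT. Of the 3′-UTRs near the 3404 bases of *Itga2*, 32.1% held CAGTATT and 43.2% held CAGTGTT. For the 1489 bases of *Itga10* the share with CAGTGTT was 20%, and among all 12062 genes with a 3′-UTR the shares were 15.7% for CAGTATT and 20.9% for CAGTGTT. Neither heptamer was found in the longest 3′-UTRs of *Itga3* (1321 bases), *Itga6* (1310), *Itga7* (598), *Itga11* (1283), *Itgb1* (1112) and *Itgb4* (312). A match is a description of the letters and not a site of action, and other sites were not searched.

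To see how the makeup of these receptors differed between CAF-vec and CAF-200, the deposited expression values were compared gene by gene. They are normalized CPM (counts scaled to a common total in every sample), so the depth of each sample is unknown. A test was made for each of the 12175 genes that reached 0.5 CPM in 2 or more samples, on log2(CPM + 0.5) with limma and Benjamini-Hochberg adjustment over all of them, and 7 of the 9 integrins were among these. A call required a log2 fold-change beyond 1 and, with it, an adjusted *p* under 0.01. *Itga3* and *Itga7* were lower in CAF-200 past both thresholds, as were 2.35% of all genes tested, and *Itga6* was higher, as were 2.37% of all genes tested. With the adjusted *p* alone these 3 integrins remained the ones called, beside 5.57% of all genes lower and 4.45% higher.

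The cells carried the markers of fibroblasts, of which 9 of 10 reached 0.5 CPM in at least 2 samples (*Fap* did not), and their summed level was between 13380 and 17240 CPM in CAF-vec and between 10730 and 11720 in CAF-200. *Col1a1*, *Col1a2*, *Vim* and *S100a4* made up most of that sum, and the other 5 that reached 0.5 CPM did not move one way. *Pdgfrb* was lower in every CAF-200 sample, *Pdgfra* overlapped between the groups, and *Col3a1*, *Dcn* and *Thy1* were higher in every CAF-200 sample, *Dcn* from 7.67 and 8.18 CPM to 51.0, 61.5 and 56.7 CPM and *Thy1* from 85.3 and 110.8 CPM to 266.4, 261.3 and 277.0 CPM. None of 10 epithelial markers reached 0.5 CPM in at least 2 samples, with a summed level of at most 0.940 CPM, and *Sftpc*, *Krt14*, *Krt18* and *Esrp1* were listed at 0 throughout. Endothelial markers summed to 1.98 to 3.37 CPM in CAF-vec against 0.902 to 1.12 in CAF-200, a difference that was mostly *Kdr* (2.31 and 1.82 CPM against 0.690, 0.612 and 0.405 CPM) while *Pecam1*, *Vwf* and *Tek* overlapped between the groups and *Cdh5*, at 0.0475 and 0.0195 CPM in CAF-vec, was higher in every CAF-200 sample (0.0608, 0.112 and 0.122 CPM). Leukocyte markers summed to 2.25 to 5.10 and 2.44 to 3.60 CPM, and Schwann cell markers to 2.41 to 3.23 and 1.97 to 2.36 CPM, with *Cldn5*, *Emcn*, *Adgre1*, *Cd3e* and *Sox10* at 0. The 7 smooth muscle and pericyte markers had a summed level of 157.1 to 170.5 CPM in CAF-vec against 1011 to 1120 in CAF-200, which was carried by the contractile genes *Acta2*, *Tagln* and *Cnn1*. Of the others, *Des* overlapped between the groups, *Cspg4* was 5.28 and 3.58 CPM in CAF-vec and 3.15, 2.66 and 3.72 CPM in CAF-200, which also overlap, and *Myh11* and *Rgs5* were under 0.1 CPM throughout. *Acta2* encodes α-smooth muscle actin, which the study names among the CAF activation markers suppressed by miR-200. The study also reports less staining of this protein in CAF-200. The *Acta2* RNA in these samples went the other way, and the reason was not tested. The pair of CAF-vec samples was less alike (SD of the log2 difference over genes 0.49) than any pair of CAF-200 samples (0.19 to 0.20). *Zeb1*, a known target of miR-200, was 43.5 and 50.7 CPM in CAF-vec and 37.8, 37.5 and 34.1 CPM in CAF-200 (adjusted *p* = 0.0504 by limma, log2 fold-change -0.36), so it lay lower in all CAF-200 samples but did not pass the threshold. The level of miR-200 itself was not analysed here.

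**Figure D1:**
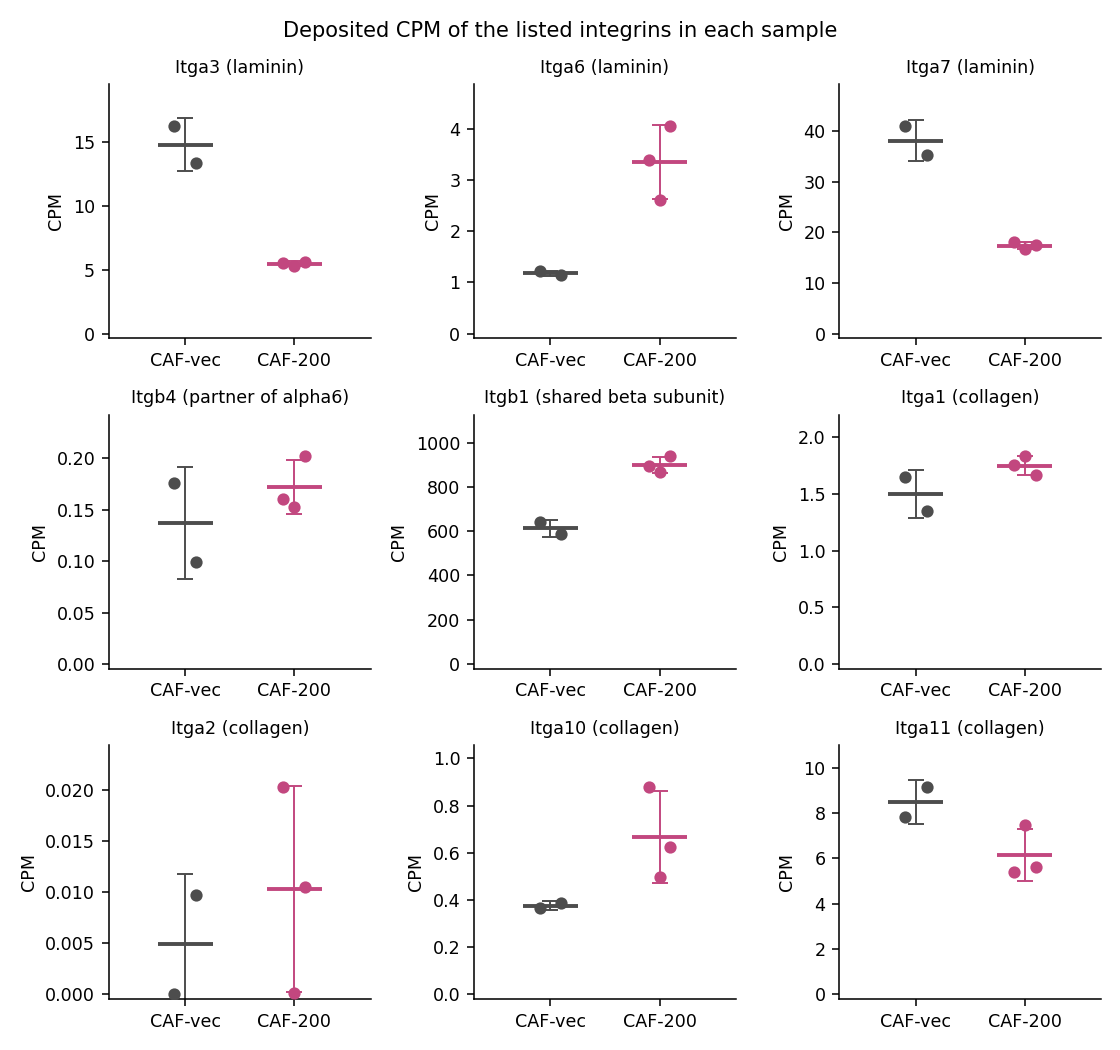
Deposited CPM of each integrin (vertical axis, starting at about 0 and scaled separately for each gene) in 2 CAF-vec samples (grey) and 3 CAF-200 samples (pink), with the mean as a line and the SD as bars, which are cut off below 0 for *Itga2*. *Itga3* and *Itga7* lie lower in all CAF-200 samples, and *Itga6* and *Itgb1* lie higher.

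Among the laminin-binding α subunits, *Itga3* fell, *Itga7* fell and *Itga6* rose. *Itga3* (ENSMUSG00000001507, chr11:95044474-95076801 of GRCm38, minus strand) encodes the α3 subunit, which with β1 forms a receptor for laminins that contain the α5 or α3 chain. Its values were 16.2 and 13.3 CPM in CAF-vec and 5.50, 5.29 and 5.62 CPM in CAF-200. The CAF-200 samples lay close together and far below both CAF-vec samples. CAF-vec averaged 14.8 ± 2.05 CPM (SD, n = 2) and CAF-200 averaged 5.47 ± 0.170 CPM (SD, n = 3), which is 2.70-fold lower, with a log2 fold-change of -1.35 (SE 0.120, adjusted *p* = 0.00286, limma).

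*Itga7* (ENSMUSG00000025348, chr10:128933818-128958282, plus strand) encodes the α7 subunit and had the highest level per kb of the 7 α subunits. It was 41.0 and 35.2 CPM in CAF-vec and 18.0, 16.6 and 17.4 CPM in CAF-200. Again the groups stood apart, and the spread within CAF-200 was small beside the distance between the groups. CAF-vec averaged 38.1 ± 4.10 CPM (SD, n = 2) and CAF-200 averaged 17.4 ± 0.705 CPM (SD, n = 3), which is 2.20-fold lower, with a log2 fold-change of -1.11 (SE 0.104, adjusted *p* = 0.00305, limma). Of the 7 smooth muscle and pericyte markers, 3 (*Acta2*, *Tagln* and *Cnn1*) were higher in every CAF-200 sample, *Acta2* going from 92.8 and 125.7 CPM to 660.7, 653.5 and 706.5 CPM, whereas *Cspg4* and *Des* overlapped between the groups, *Myh11* and *Rgs5* stayed under 0.1 CPM and the skeletal muscle markers *Myod1*, *Myog*, *Actn2* and *Ckm* were at 0. The part of these markers in the integrin values was not tested, and in bulk RNA fewer cells of a type cannot be told apart from less RNA per cell. Only 9 exonic bases of *Itga7* overlap a gene on the opposite strand, *Mettl7b*, which had at most 0.0905 CPM.

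*Itga6* (ENSMUSG00000027111, chr2:71745616-71858416, plus strand) encodes the α6 subunit, a partner of both β1 and β4. It was 1.21 and 1.15 CPM in CAF-vec and 3.39, 2.62 and 4.06 CPM in CAF-200. All CAF-200 samples lay above both CAF-vec samples, although they differed among themselves. CAF-vec averaged 1.18 ± 0.0465 CPM (SD, n = 2) and CAF-200 averaged 3.36 ± 0.724 CPM (SD, n = 3), which is 2.84-fold higher, whereas the log2 fold-change after adding 0.5 CPM, which understates changes at low levels, was 1.18 (SE 0.188, adjusted *p* = 0.00949, limma). This adjusted *p* lay just inside the threshold. With 1 CPM added in place of 0.5, the log2 fold-change of *Itga6* was 0.98, its adjusted *p* (limma) was 0.0104, and without the filter on low values its adjusted *p* was 0.0165 (limma).

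The calls of these 3 α subunits needed all of the CAF-200 samples. Without CAF-200 replicate 1, 2 or 3, the adjusted *p* (limma) of *Itga3* was 0.0244, 0.0261 or 0.0277, that of *Itga6* was 0.0480, 0.0285 or 0.0475, and that of *Itga7* was 0.0256, 0.0270 or 0.0291. Their fold-changes stayed on the same side, between -1.37 and -1.33 for *Itga3*, 1.05 and 1.33 for *Itga6* and -1.14 and -1.08 for *Itga7* on the log2 scale. Over all genes, 0 or 1 gene passed both thresholds in each of these fits.

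**Figure D2:**
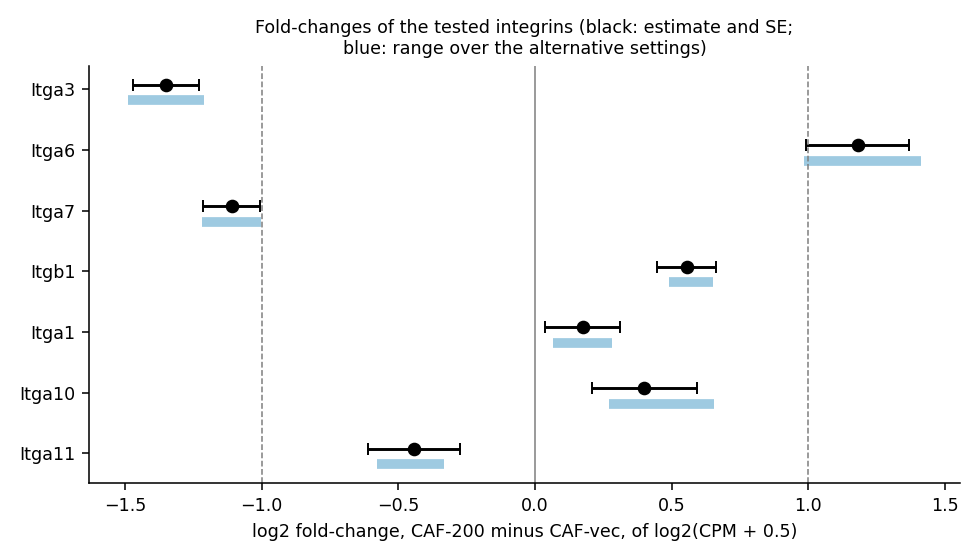
Log2 fold-change (CAF-200 minus CAF-vec, on log2(CPM + 0.5)) of the 7 tested integrins, with the SE as black bars and the range over the alternative settings in blue. Dashed lines mark 1 and -1. *Itga3* and *Itga7* lie beyond -1, *Itga6* beyond 1, and none of the 7 ranges includes 0.

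*Itgb4* (ENSMUSG00000020758, chr11:115974709-116008412, plus strand), which encodes the β4 partner of α6, was too low to be tested. Its values of 0.176 and 0.0988 CPM in CAF-vec and 0.161, 0.153 and 0.202 CPM in CAF-200 overlapped. Of its exonic bases, 537 overlap *B230344G16Rik* on the opposite strand, and whether the counting used the strand is not given in the sources used here.

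*Itgb1* (ENSMUSG00000025809, chr8:128685654-128733200, plus strand), which encodes the β1 subunit common to these receptors, was 639.0 and 585.1 CPM in CAF-vec and 892.0, 867.4 and 937.5 CPM in CAF-200. All CAF-200 samples were above both CAF-vec samples. CAF-vec averaged 612.0 ± 38.1 CPM (SD, n = 2) and CAF-200 averaged 899.0 ± 35.6 CPM (SD, n = 3), a ratio of 1.47. Its log2 fold-change of 0.55 (SE 0.108, adjusted *p* = 0.0161, limma) passed neither threshold.

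None of the collagen-binding α subunits passed the test. *Itga11* (ENSMUSG00000032243, chr9:62677826-62783982, plus strand), the α subunit of a fibroblast receptor for fibrillar collagens, was 7.81 and 9.16 CPM in CAF-vec and 5.40, 7.47 and 5.60 CPM in CAF-200. The highest CAF-200 value lay just under the lower CAF-vec value. The means were 8.48 ± 0.953 CPM (SD, n = 2) and 6.16 ± 1.14 CPM (SD, n = 3), with a log2 fold-change of -0.44 (SE 0.169, adjusted *p* = 0.0979, limma).

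*Itga1* (ENSMUSG00000042284, chr13:114953096-115101964, minus strand), whose α1β1 receptor prefers basement membrane collagen, was 1.65 and 1.35 CPM in CAF-vec and 1.75, 1.83 and 1.66 CPM in CAF-200. The means of 1.50 ± 0.212 CPM (SD, n = 2) and 1.75 ± 0.0837 CPM (SD, n = 3) were close, with a log2 fold-change of 0.17 (SE 0.137, adjusted *p* = 0.361, limma). This fold-change was 0.28 without CAF-vec replicate 1 and 0.066 without CAF-vec replicate 2. The groups did not overlap, but the highest CAF-vec and the lowest CAF-200 value almost met. It shares 685 exonic bases on its own strand with *Gm49395*, so reads could be split between them, and that gene was 1.60 and 0.285 CPM in CAF-vec and 0.370, 0.391 and 0.00208 CPM in CAF-200.

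*Itga10* (ENSMUSG00000090210, chr3:96645584-96664519, plus strand), best known from cartilage, was 0.364 and 0.389 CPM in CAF-vec and 0.880, 0.496 and 0.623 CPM in CAF-200. It was tested only because 2 CAF-200 samples passed 0.5 CPM. The log2 fold-change was 0.40 (SE 0.192, adjusted *p* = 0.162, limma). It shares 1739 exonic bases on its own strand with *Gm42957*, which had at most 0.102 CPM. *Itga2* (ENSMUSG00000015533, chr13:114833081-114932100, minus strand), a collagen receptor of platelets and epithelia, was not tested, with 0 and 0.00975 CPM in CAF-vec and 0.0203, 9.16e-05 and 0.0105 CPM in CAF-200.

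Leaving aside *Itga10*, which entered the test through CAF-200 alone, 3 of the other 6 tested integrins had every CAF-200 sample under both control samples, *Itga3*, *Itga7* and *Itga11*, against 37.3% of all genes tested, and 3 had every one over them, *Itga1*, *Itga6* and *Itgb1*, against 24.3%. Non-overlap was therefore common among all genes, and nothing is read from it for *Itga1* and *Itga11*.

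To compare levels between genes, CPM was divided by the length of all annotated exons in kb. *Itgb1* had 150.0 CPM per kb in CAF-vec and 220.3 CPM per kb in CAF-200, far above every α subunit. In CAF-vec the order of the mean levels was *Itga7* (4.71 CPM per kb), *Itga3* (2.59), *Itga11* (1.65), *Itga6* (0.131), *Itga1* (0.0805), *Itga10* (0.0726), *Itgb4* (0.0196) and *Itga2* (0.000684). The neighbors *Itga1* and *Itga10* overlapped in CAF-vec with this length, but divided by the longest annotated transcript *Itga1* (0.150 and 0.123) lay above *Itga10* (0.0721 and 0.0771).

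In CAF-200 *Itga7* was still the most abundant of the α subunits (2.14 CPM per kb). *Itga11* (1.20) came next and *Itga3* (0.958) after it, with sample values of 1.05, 1.46 and 1.09 for *Itga11* and 0.964, 0.926 and 0.984 for *Itga3*. Divided by the longest annotated transcript, these became 1.09, 1.50 and 1.13 for *Itga11* against 1.13, 1.09 and 1.16 for *Itga3*, which overlap, so their order in CAF-200 was not settled. *Itga6* (0.372 CPM per kb) remained below them in every sample and above *Itga10* (0.128) and *Itga1* (0.0940), which overlapped.

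The makeup of the laminin-binding α subunits followed from these values. As a share of the summed CPM per kb of *Itga3*, *Itga6* and *Itga7*, *Itga6* was 1.67% and 1.87% in CAF-vec and 10.5%, 8.86% and 12.6% in CAF-200. Its mean share went from 1.77% ± 0.139 (SD, n = 2) to 10.7% ± 1.85 (SD, n = 3), a difference of 8.88 percentage points. The share of *Itga3* went from 34.8% ± 0.759 to 27.6% ± 0.662, while that of *Itga7* was 63.4% ± 0.621 in CAF-vec and 61.8% ± 1.53 in CAF-200. The *Itga7* difference of -1.68 percentage points was -0.80 without CAF-200 replicate 3 and -4.68 with the longest transcript as the length. No overlap was left between the groups for any of the 3 shares, and the two-sided exact permutation *p* was 0.2 for each, the smallest that 2 against 3 samples allow. Accordingly, the ratio of *Itga3* to *Itga6* per kb was 21.1 and 18.3 in CAF-vec and 2.56, 3.20 and 2.19 in CAF-200, and with the longest transcript as the length it was 11.9 and 10.3 against 1.44, 1.79 and 1.23.

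Among the collagen-binding α subunits, *Itga11* held most of the RNA in every sample. Its share was 90.6% and 92.3% in CAF-vec and 79.8%, 88.2% and 83.8% in CAF-200, a difference of means of -7.50 percentage points. *Itga10* went from a mean share of 4.03% ± 0.211 (SD, n = 2) to 9.30% ± 3.54 (SD, n = 3) and *Itga1* from 4.51% ± 1.08 to 6.66% ± 0.614. The difference was 5.27 percentage points for *Itga10*, or 3.48 without CAF-200 replicate 1, and 2.15 for *Itga1*, or 1.39 without CAF-vec replicate 2 and 3.30 with the longest transcript as the length. The exact permutation *p* (two-sided) was 0.2 for each of these 3 shares, and 0.4 for that of *Itga2*, which had a mean share of at most 0.110%. *Itga10* was near the 0.5 CPM of the filter and entered the test through CAF-200 alone, so nothing is read from its share. The shares within a sample depend on each other, so the lower *Itga11* share reflects in part the higher one of *Itga10*.

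**Figure D3:**
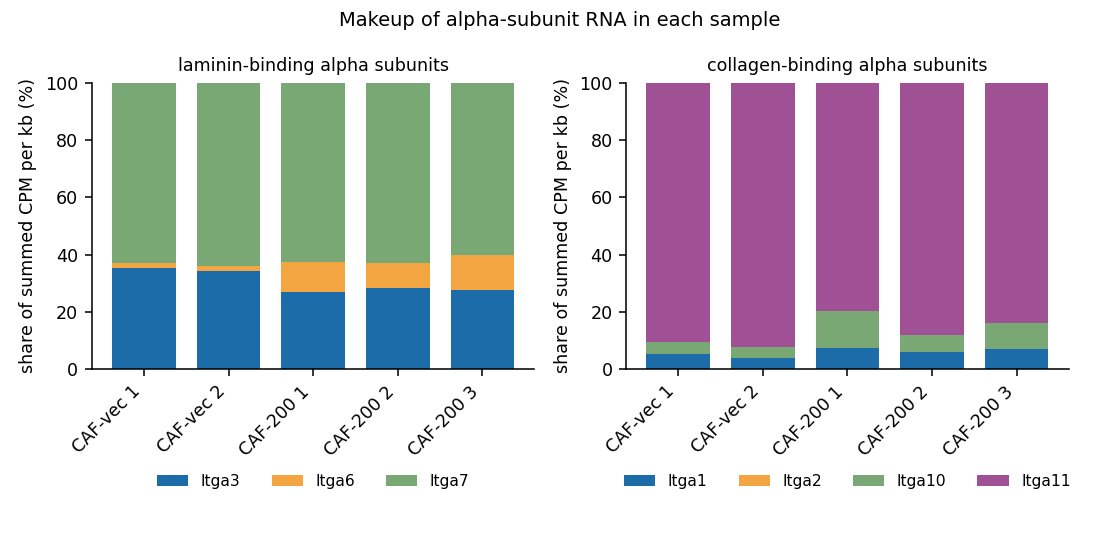
Share (%) of each α subunit in the summed CPM per kb of the laminin-binding (left) and collagen-binding (right) α subunits, 1 bar per sample. The *Itga6* part is 1.67% and 1.87% in CAF-vec and 8.86% to 12.6% in CAF-200, and *Itga11* makes up most of the right bars; *Itga2* is too small to see.

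Summed over the 3 genes, laminin-binding α RNA was 8.04 and 6.81 CPM per kb in CAF-vec and 3.57, 3.27 and 3.59 CPM per kb in CAF-200. The sum over the 4 collagen-binding α subunits was 1.68 and 1.93 CPM per kb in CAF-vec and 1.32, 1.65 and 1.30 CPM per kb in CAF-200. The groups did not overlap in either sum, but in the collagen-binding sum CAF-200 replicate 2 came close to CAF-vec replicate 1. The ratio of *Itgb1* to all 7 α subunits per kb was 16.1 and 16.4 in CAF-vec and 44.7, 43.2 and 47.0 in CAF-200 (exact permutation *p* = 0.2, two-sided). With the longest transcript as the length it was 10.7 and 11.1 in CAF-vec and 29.9, 29.9 and 31.4 in CAF-200. β1 also pairs with α subunits that are not in this sum, *Itga5* and *Itgav* among them. Per kb of all exons, *Itga5* averaged 16.5 CPM in CAF-vec and 17.6 in CAF-200, and *Itgav* 9.14 and 11.2. The sum of the 7 listed α subunits averaged 9.23 and 4.90. The change in the ratio therefore describes the listed subunits only and not all partners of β1.

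The genes whose profiles over the 5 samples were nearest to those of the called integrins were found by the Euclidean distance between log2(CPM + 0.5) values centered on each gene's own mean. *Rell2* (distance 0.0778), *Cd300lb* (0.129) and *Tnxb* (0.133) were nearest to *Itga3*. *Tll1* (0.0869), a metalloproteinase of procollagen processing, *Fosl1* (0.142), an AP-1 transcription factor, and *Nr4a2* (0.193), a nuclear receptor, were nearest to *Itga6*. *Ogdhl* (0.0973), *Nfatc4* (0.0987) and *Pltp* (0.103) were nearest to *Itga7*. They share the samples, so that similar fold-changes follow from the way they were chosen. For *Tll1*, the values were 13.5 and 12.6 CPM in CAF-vec and 28.8, 24.2 and 35.1 CPM in CAF-200, with the same order of samples within CAF-200 as *Itga6*.

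The matrix around these receptors was followed in a list of 34 genes for laminin chains, collagen chains and their binding partners, of which 25 were tested, and not every product in it is an integrin ligand. The list, like those below, was drawn up with earlier results of these data known. In it 2 of the 25 genes were lower past both thresholds and 0 were higher, beside 2.35% and 2.37% of all genes tested. They encode chains of collagen VI, a microfibrillar collagen bound by α1β1 and other integrins. *Col6a1* was 494.2 and 304.2 CPM in CAF-vec and 125.7, 133.2 and 120.0 CPM in CAF-200 (log2 fold-change -1.62, SE 0.209, adjusted *p* = 0.00589, limma). *Col6a2* was 167.2 and 141.6 CPM in CAF-vec and 62.0, 66.2 and 60.6 CPM in CAF-200 (log2 fold-change -1.28, SE 0.106, adjusted *p* = 0.00272, limma).

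With the adjusted *p* alone, 6 of the 25 genes of this list were lower and 1 higher, beside 5.57% and 4.45% of all genes tested, so that the higher count was near that of all genes. Beside the collagen VI chains, the lower ones were *Lama5* (log2 fold-change -0.83) and *Lamc1* (-0.55), which encode chains of laminin-511, *Agrn* (-0.65), the laminin-binding proteoglycan agrin, and *Dag1* (-0.88), the non-integrin laminin receptor dystroglycan. The higher one was *Nid1* (0.87), which links laminin to collagen IV. The most abundant ligand transcript by CPM, *Col1a2* of the fibrillar collagen I, was 5185 and 2567 CPM in CAF-vec and 2284, 2182 and 2048 CPM in CAF-200 (adjusted *p* = 0.112 by limma, log2 fold-change -0.75). Its 2 CAF-vec values lay farther apart than CAF-vec replicate 2 did from CAF-200. Without *Lama2*, which reached 0.5 CPM only in CAF-200, the median log2 fold-change of the other 24 genes was -0.24 (-0.094 over all genes tested), with 13 genes below and 7 above in all CAF-200 samples, beside 37.3% and 24.3% of all genes tested.

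The number of ligand genes past both thresholds depended on single samples, as did that of all genes. It was 5 without CAF-vec replicate 1, where 325 of all genes tested were lower and 347 higher, 7 without CAF-vec replicate 2, where 955 were lower and 625 higher, and 0 without any 1 of the CAF-200 samples, where 0 or 1 gene passed, against 286 lower and 289 higher with all samples.

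Inside the cell, 31 of 33 genes for adaptors, kinases and actin linkers that join integrins to the cytoskeleton were tested, and limma called 0 past both thresholds, with 10 lower and 7 higher at an unadjusted *p* under 0.05, beside 27.6% and 17.3% of all genes tested. Without CAF-vec replicate 1 or 2 the count past both thresholds was 1 of 31, while that of all genes was 325 lower and 347 higher or 955 lower and 625 higher. By the adjusted *p* alone 2 of the 31 were lower and 1 higher, near the 5.57% and 4.45% of all genes tested. *Vcl* (log2 fold-change -0.60), encoding the focal adhesion protein vinculin, and *Lims2* (-0.65), a partner of integrin-linked kinase, were lower, and *Ptk2b* (0.97), the kinase related to focal adhesion kinase, was higher. *Zyx*, the most abundant of the list by CPM, was 1470 and 1261 CPM in CAF-vec and 1154, 1098 and 1057 CPM in CAF-200 (adjusted *p* = 0.119 by limma, log2 fold-change -0.30). The median log2 fold-change was -0.080.

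In the membrane, 14 of 16 listed partners of integrins were tested, with 1 lower and 1 higher past both thresholds, beside 2.35% and 2.37% of all genes tested. *Cd9*, a tetraspanin that associates with α3β1 and α6β1, was 313.4 and 342.5 CPM in CAF-vec and 138.3, 138.4 and 135.5 CPM in CAF-200 (log2 fold-change -1.25, SE 0.0883, adjusted *p* = 0.00194, limma). *Cd53*, a tetraspanin of leukocytes, was 1.29 and 2.85 CPM in CAF-vec and 9.25, 10.4 and 12.0 CPM in CAF-200 (log2 fold-change 2.17, SE 0.279, adjusted *p* = 0.00587, limma). Nearly all of the summed level of the leukocyte markers was *Cd68*, a lysosomal protein abundant in macrophages, at 2.25 and 5.01 CPM in CAF-vec and 2.39, 3.31 and 3.54 CPM in CAF-200, which overlap, while *Ptprc* was at most 0.0404 CPM and *Adgre1* was at 0 in every sample. *Cd63*, the most abundant partner by CPM, was 4299 and 2235 CPM in CAF-vec and 1889, 1834 and 1837 CPM in CAF-200 (adjusted *p* = 0.0965 by limma, log2 fold-change -0.74). *Ptgfrn* (-0.59), a tetraspanin partner, was also lower by the adjusted *p* alone. The other tested tetraspanins of the list did not move 1 way. *Cd151* was higher in every CAF-200 sample (log2 fold-change 0.37, adjusted *p* = 0.0323, limma). *Cd81*, *Cd82* and *Cd63* were lower in every CAF-200 sample, and *Tspan4* overlapped between the groups. The median log2 fold-change of this list was -0.16 without *Col17a1*, which reached 0.5 CPM only in CAF-vec. Without any 1 of the CAF-200 samples, 0 partners passed both thresholds, and without CAF-vec replicate 2, where the calls over all genes also rose to 955 lower and 625 higher, there were 4.

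Of 17 other integrin genes, 11 were tested and limma called 0 in either direction, both with the adjusted *p* alone and with both thresholds, and 3 were lower and 3 higher at an unadjusted *p* under 0.05, where 27.6% of all genes tested were lower and 17.3% higher. The 3 lower ones include *Itga8*, which reached 0.5 CPM only in CAF-vec, and without it the median log2 fold-change was -0.037.

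**Figure D4:**
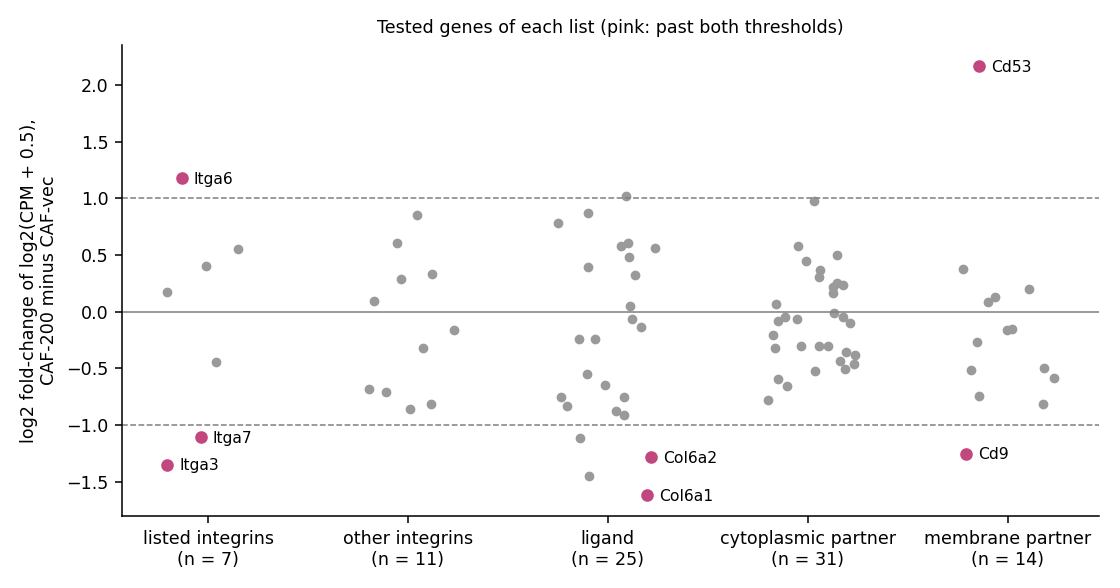
Log2 fold-change (CAF-200 minus CAF-vec, on log2(CPM + 0.5)) of each tested gene in the 5 lists, with genes past both thresholds in pink. Dashed lines mark 1 and -1, and horizontal scatter within a list only separates the points. The pink genes are *Itga3*, *Itga6* and *Itga7* among the listed integrins, *Col6a1* and *Col6a2* among ligands and *Cd9* and *Cd53* among membrane partners.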

How the data were processed

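RNA of 2 CAF-vec and 3 CAF-200 samples was sequenced as paired-end stranded mRNA libraries. The submitters' processing notes name FastQC, cutadapt, Trimmomatic, STAR, RSEM and edgeR and the builds GRCm38 and mm10, without versions. The authors deposited 1 table of CPM values for 21835 genes, whose columns sum to 999956 to 1000111 CPM. The values are not multiples of a fixed step, so reads could not be recovered, no count test was run and depth is unknown. All 5 sample columns were used. Whether the counting used strand is not given in the sources used here.

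Values were compared with limma 3.58.1 (lmFit and eBayes with a variance trend, no covariates) in R 4.3.3. The pseudocount, filter and thresholds (those of the study's volcano plot) are given with the results. The test was tried beforehand on simulated data with errors drawn independently for each sample. Of genes changed by 1.5 on the log2 scale, a median of 62.5% were called at both thresholds. For genes changed by 3 it was 91%, with at most 3 false calls in a run. A gene that was not called may therefore still have changed. Shares and ratios were compared with exact permutation tests over samples. Gene names (21795 matched), lengths and 3′-UTRs came from GENCODE M21 by identifier. Other steps ran in Python 3.11.15 (SciPy 1.17.1, numpy 2.4.6, pandas 2.3.3, matplotlib 3.10.9).

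The members and lists were chosen with earlier results of these data known. Named genes are the 9 integrins, list members past both thresholds, the tested member of each ligand or partner list with the highest mean CPM (other integrins were described by counts), *Zeb1*, and the 3 nearest profiles of each called integrin. Those named by the adjusted *p* alone, for a shared exon, for the filter or as a marker were chosen after their values were seen. The same holds for those named as another partner of β1, as a relative of a named gene or in the closing section. Alternatives were a pseudocount of 1 or 0.1, no filter or 1 CPM in every sample, quantile normalization, median centring, no variance trend, other thresholds, another gene length, each sample left out and the replicate number as a block. No protein sequences were used here.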

Additional observations from a re-analysis of the deposited data

How the results depend on the processing

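Over the alternatives no tested integrin changed the sign of its fold-change, and the log2 fold-changes ranged from -1.49 to -1.21 for *Itga3*, 0.98 to 1.41 for *Itga6*, -1.22 to -1.0 for *Itga7* and 0.49 to 0.65 for *Itgb1*. The number of listed integrins lower past both thresholds was 0 to 2 with 1 sample left out, and the number higher was 0 to 1, with the 0 from each CAF-200 sample left out. The number higher was also 0 with a pseudocount of 1 and 0 without the filter. Ligand genes past both thresholds, 2 in the report, numbered 1 without the filter, 4 with quantile normalization, 4 at an adjusted *p* under 0.05, 7 at a log2 fold-change beyond 0.5 and 0 to 7 with 1 sample left out. Cytoplasmic partners numbered 1 with a pseudocount of 0.1, 1 with quantile normalization, 1 with median centring, 3 at a log2 fold-change beyond 0.5 and 0 to 1 with 1 sample left out. Membrane partners numbered 1 without the filter and 0 to 4 with 1 sample left out. A fit with 1 CAF-vec sample assumes that it varies like CAF-200. The causes of these shifts were not tested.

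With the replicate number as a block, limma called 0 listed integrins lower (2 at an unadjusted *p* under 0.05) and 0 higher (2 at that *p*), 0 ligand genes (16 at that *p*) and 1 membrane partner, and over all genes 70 lower and 101 higher in place of 286 and 289. The same-numbered samples deviated together with correlations of 0.249 and 0.134 across genes, and CAF-vec replicate 2 and CAF-200 replicate 3, with different numbers, gave 0.119. Deviations from the mean of 2 CAF-vec samples mirror each other, so these correlations are not independent. They do not settle whether the samples were paired, and 2 pairs do not establish a pairing.

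With the longest annotated transcript as the length, the differences in share were -5.62 percentage points for *Itga3*, -4.68 for *Itga7* and 3.30 for *Itga1*. Over all genes, the median log2 fold-change was -0.094 in the report and 0.0027 with median centring, which gave 228 genes lower and 365 higher. Depth is unknown, so genes near or under 0.5 CPM, such as *Itga2*, *Itgb4* and *Itga10*, have no stated counting error.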

Other observations

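*Itgbl1* (ENSMUSG00000032925, chr14:123659971-123975618 of GRCm38, plus strand), which encodes a secreted protein with repeats like those of integrin β subunits and is no integrin subunit itself, had a larger fall than any of the listed integrins. It was 20.3 and 14.4 CPM in CAF-vec and 2.58, 2.51 and 2.11 CPM in CAF-200, with all CAF-200 samples far below both CAF-vec samples (log2 fold-change -2.60, SE 0.177, adjusted *p* = 0.00186, limma). *Itga2b*, the α subunit of the platelet fibrinogen receptor, was 20.8 and 14.3 CPM in CAF-vec and 10.4, 10.3 and 10.9 CPM in CAF-200 (adjusted *p* = 0.0297 by limma, log2 fold-change -0.68), which did not pass the threshold. *Itgb6*, the β subunit of an epithelial integrin, was 4.65 CPM in 1 CAF-vec sample and 0.297 CPM in the other, against 1.25, 0.486 and 0.387 CPM in CAF-200, so the groups overlapped. All 3 were picked out once their values were known.

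The chains of collagen VI did not move together. *Col6a3*, which was also chosen after its values were seen, was 110.4 and 124.3 CPM in CAF-vec and 172.9, 164.1 and 181.1 CPM in CAF-200 (adjusted *p* = 0.0126 by limma, log2 fold-change 0.56), above both CAF-vec samples where *Col6a1* and *Col6a2* lay below them.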
